A study of Homo sapiens with 3 samples.

Results

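The miRNAs described here are 10 hairpins known for their expression in kidney tubules and other epithelia. They were chosen by name and not by any measured value, though with earlier results of these data known. They were hsa-mir-200a, hsa-mir-200b, hsa-mir-200c, hsa-mir-141, hsa-mir-429, hsa-mir-192, hsa-mir-194-1, hsa-mir-194-2, hsa-mir-215 and hsa-mir-204, out of 1878 hairpins in the count table, and they give 17 mature miRNAs. The question was how much of this epithelial set is present in a line derived from human embryonic kidney, and whether its levels differ when an unrelated miRNA is induced. Flp-In T-REx 293 cells, an HEK293 derivative, received a lentiviral vector with no miRNA (empty vector), with a miR-1 hairpin or with a miR-122 hairpin. All groups, the control included, were selected with Geneticin at 1 mg/mL over 6 days, after which its concentration was lowered. They also received 7 days of doxycycline at 1 ug/mL, which switches on the GFP transcript whose intron carries the hairpin. The cells were stable lines, and each group gave 1 small RNA library from 1000 ng of total RNA. No difference between libraries therefore has a replicate check, no test between conditions was run, and every interval in the text is a 95% interval for counting error only.

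The miR-200 family is made from a pair of gene clusters and is known for repressing the transcription factors ZEB1 and ZEB2, which holds cells in an epithelial state. The miRNAs miR-192, miR-194 and miR-215 come from a pair of paralogous clusters that are active in kidney and gut epithelium, where the HNF1 transcription factors drive them. The gene of miR-204 lies inside TRPM3, and miR-204 is abundant in kidney tubules and in the retinal pigment epithelium.

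The mature sequences are shown because the seed (bases 2 to 8, in capitals) decides which mRNAs a miRNA can pair with, and because some members differ by so few bases that their reads are hard to separate. The RefSeq table, built on GRCh38.p14, held 16 of the 17 mature members; miR-141-5p had no entry. The 9 guide arms, meaning the arm of each hairpin that is normally loaded into Argonaute, and miR-211-5p, the other miRNA with the miR-204 seed, read as follows, 5′ to 3′.
miR-200b-3p: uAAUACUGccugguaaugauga
miR-200c-3p: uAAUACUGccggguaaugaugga
miR-429: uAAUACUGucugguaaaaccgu
miR-141-3p: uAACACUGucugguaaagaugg
miR-200a-3p: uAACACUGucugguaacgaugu
miR-192-5p: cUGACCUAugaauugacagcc
miR-215-5p: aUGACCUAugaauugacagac
miR-194-5p: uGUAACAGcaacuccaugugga
miR-204-5p: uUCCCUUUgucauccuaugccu
miR-211-5p: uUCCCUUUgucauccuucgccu

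The miR-200 family thus has a pair of seeds that differ by 1 base, AAUACUG in miR-200b-3p, miR-200c-3p and miR-429 and AACACUG in miR-141-3p and miR-200a-3p. Counting positions from 1 at the 5′ end, miR-141-3p and miR-200a-3p differ by A17C and G22U, and miR-200b-3p and miR-200c-3p by U11G and A22G plus 1 further base at the end of miR-200c-3p. Between miR-192-5p and miR-215-5p the differences are C1A and C20A, both outside the shared seed UGACCUA. The hairpins hsa-mir-194-1 and hsa-mir-194-2 carry the same miR-194-5p, and the base that follows it differs between them (C23A).

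On GRCh37, the build named in the processing notes, MIR200B (chr1:1102484-1102578), MIR200A (chr1:1103243-1103332) and MIR429 (chr1:1104385-1104467) lie on the plus strand outside any annotated host gene. MIR200C (chr12:7072862-7072929) and MIR141 (chr12:7073260-7073354) lie 330 bases apart in an intron of the lncRNA MIR200CHG. MIR192 (chr11:64658609-64658718) and MIR194-2 (chr11:64658827-64658911) are separated by 108 bases on the minus strand and overlap an exon of the lncRNA MIR194-2HG. MIR215 (chr1:220291195-220291304) and MIR194-1 (chr1:220291499-220291583) lie on the minus strand, opposite to IARS2, in an intron of that gene. MIR204 (chr9:73424891-73425000) is in an intron of TRPM3, on the same strand.

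The libraries held 1636834 (empty vector), 2892684 (miR-1) and 2577292 (miR-122) counts, of which 1636481, 1791702 and 1947669 were endogenous, that is, not assigned to the synthetic hairpins. Levels are given as RPM, the counts out of every 1000000 endogenous counts, so that 1 count was worth 0.611, 0.558 and 0.513 RPM. A count of 0 allows up to 3 counts, or 1.83, 1.67 and 1.54 RPM. The induced miRNAs matched the labels: miR-1-3p had 1100840 counts in the miR-1 library against 166 and 369 in the empty vector and miR-122 libraries, and miR-122-5p had 627576 in the miR-122 library against 10 in each of the others.

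The kidney cluster miRNAs were readily measured and the miR-200 family was nearly absent apart from miR-200c. Together the 10 hairpins gave 5566 counts with the empty vector, 6551 with miR-1 and 5884 with miR-122. These sums were 0.340% (0.331 to 0.349), 0.366% (0.357 to 0.375) and 0.302% (0.294 to 0.310) of endogenous counts. The group of miR-192, miR-194 and miR-215 made up 91.9%, 92.6% and 91.7% of them, the miR-200 family 4.94%, 5.19% and 4.93%, and miR-204 3.20%, 2.23% and 3.42%. This group exceeded the miR-200 family 18.59-fold (16.47 to 21.07), 17.84-fold (15.99 to 19.96) and 18.60-fold (16.52 to 21.001), so the 3 libraries did not differ in this balance beyond their counting intervals. Counts of different miRNAs also depend on how well each one is cloned into a library, which was not measured here.

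Of the 17 mature members, 12, 14 and 12 had at least 1 count (empty vector, miR-1 and miR-122 library, in this order throughout). So did 1049, 1082 and 1060 of all 2580 endogenous mature miRNAs. In each library 5 members had at least 100 counts. Those 5 were miR-192-5p, miR-194-5p, miR-215-5p, miR-200c-3p and miR-204-5p, and they kept this order of level in all 3 libraries. No neighbors in that order had overlapping counting intervals within a library, the closest being miR-194-5p (330 to 383 RPM) and miR-215-5p (280 to 329 RPM) with miR-122. The passenger arms miR-200a-5p, miR-200b-5p and miR-200c-5p had no count in any library. The plot of levels by library separates the abundant guide arms from the rest by more than the width of their intervals.

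**Figure D1:**
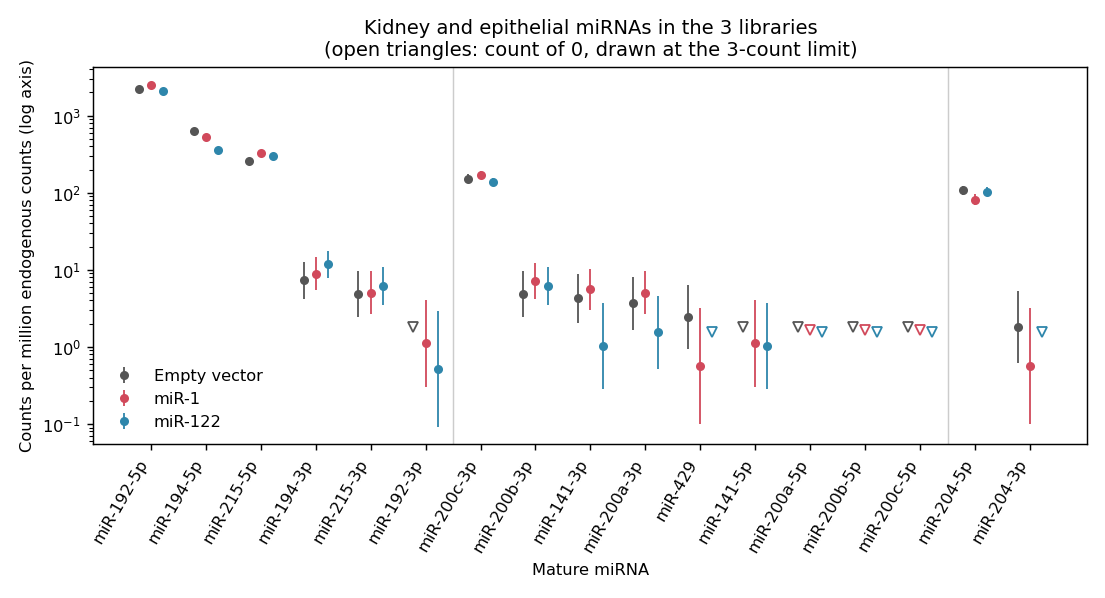
Level of each of the 17 mature miRNAs (y axis, RPM of endogenous counts, log axis) in the 3 libraries, with 95% Wilson counting intervals. Grey lines separate the group of miR-192, miR-194 and miR-215, the miR-200 family and miR-204, and open triangles mark a count of 0 at the 3-count limit. In all 3 libraries 5 guide arms had at least 100 counts, and miR-192-5p was the highest.

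miR-192-5p, the guide of the kidney and gut cluster on chromosome 11 and known for its regulation by TGF-beta in kidney, was the most abundant member. It had 3634, 4508 and 4074 counts in the empty vector, miR-1 and miR-122 libraries, or 2221, 2516 and 2092 RPM. It ranked 61, 57 and 61 among the 1049, 1082 and 1060 endogenous miRNAs detected, and alone it held 65.3%, 68.8% and 69.2% of the members' counts. The most abundant endogenous miRNA of these cells, miR-10a-5p, was 58.0, 54.4 and 70.6 times higher. The passenger arm miR-192-3p had 0, 2 and 1 counts, so that miR-192-5p made up 99.98% of both arms over the 3 libraries.

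miR-215-5p, which shares the miR-192 seed but comes from chromosome 1, had 419, 587 and 591 counts (256, 328 and 303 RPM, ranks 161, 139 and 144). It was low in the empty vector library and close to equal in the other two. Within a library, where no scaling is needed, miR-192-5p exceeded miR-215-5p 8.67-fold (7.84 to 9.62), 7.68-fold (7.05 to 8.38) and 6.89-fold (6.32 to 7.53). The ratio of miR-215-5p to miR-192-5p was 1.26 times as high in the miR-122 library as in the empty vector library (exact conditional interval 1.10 to 1.44) and 1.13 times as high in the miR-1 library (0.987 to 1.29). Together the seed UGACCUA had 4053, 5095 and 4665 counts, 72.8%, 77.8% and 79.3% of all member counts. The other arm, miR-215-3p, had 8, 9 and 12 counts.

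miR-194-5p, made from both clusters and known as an epithelial miRNA of gut, liver and kidney, had 1040, 943 and 692 counts. These were 636 RPM (598 to 675), 526 RPM (494 to 561) and 355 RPM (330 to 383), with ranks 105, 113 and 132. The level was highest in the empty vector library and lowest in the miR-122 library, and the 3 counting intervals did not overlap. The counts were divided between the rows of hsa-mir-194-1 (441.5, 380 and 286.5) and hsa-mir-194-2 (598.5, 563 and 405.5). A read of the mature sequence alone cannot be assigned to either cluster, and the difference between the rows was 15.1%, 19.4% and 17.2% of their sum.

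Relative to the miRNAs that share its clusters, miR-194-5p differed between libraries beyond counting error. How often other pairs of miRNAs differed as much was not computed, so whether this is unusual is not known. The ratio of miR-194-5p to its neighbor miR-192-5p was 0.286 (0.267 to 0.307) with the empty vector, 0.209 (0.195 to 0.224) with miR-1 and 0.170 (0.156 to 0.184) with miR-122. Relative to the empty vector this ratio was 0.731-fold (0.662 to 0.807) with miR-1 and 0.594-fold (0.533 to 0.661) with miR-122. The ratio to its other neighbor miR-215-5p was 2.48 (2.21 to 2.79), 1.61 (1.45 to 1.78) and 1.17 (1.05 to 1.31), which was 0.472 times as high (0.402 to 0.554) in the miR-122 library as with the empty vector. Both ratios had the same order of libraries, but they share the miR-194-5p counts and are not independent. Neither depends on how the libraries were scaled against each other. With 1 library per group, the induced miRNA and anything else that differed between these cultures or library preparations cannot be told apart.

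The passenger arm miR-194-3p, which the table lists for hsa-mir-194-2, moved the other way in counts, with 12, 16 and 23. The guide share of both arms was 98.9% (98.0 to 99.3), 98.3% (97.3 to 99.0) and 96.8% (95.2 to 97.8). The guide counts were summed over both hairpins, so this is not the share of a single hairpin. The share in the miR-122 library was below that in the empty vector library with no overlap of the Wilson intervals, on 23 and 12 counts of the rarer arm. The ratio of miR-194-5p to miR-194-3p in the miR-122 library was 0.347 times that in the empty vector library (0.156 to 0.733). For comparison, miR-215-5p, made from a single hairpin, held 98.1%, 98.5% and 98.0% of its arms.

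**Figure D2:**
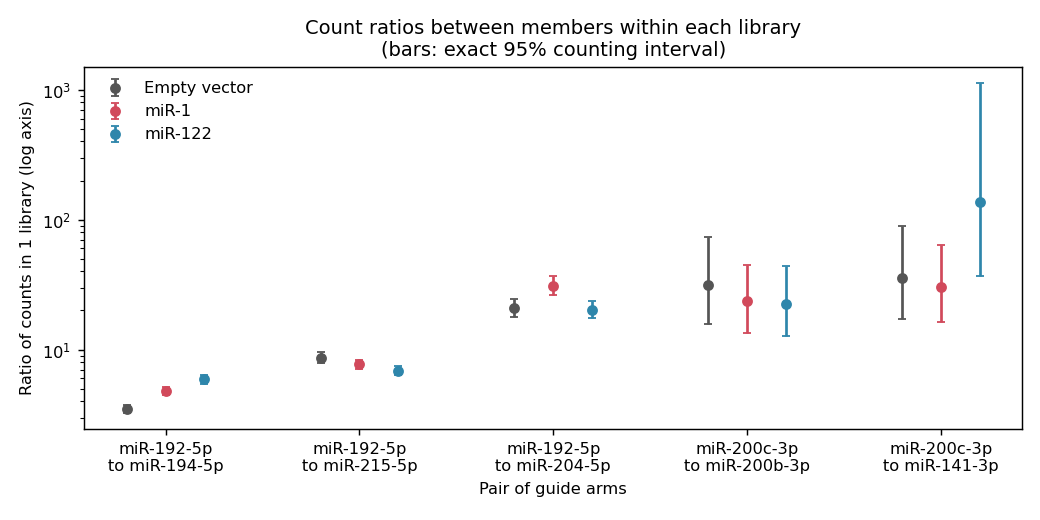
Ratio of the counts of a pair of guide arms within 1 library (y axis, log axis) for 5 pairs (x axis), with exact 95% counting intervals; colors mark the empty vector, miR-1 and miR-122 libraries. The ratio of miR-192-5p to miR-194-5p was 3.49, 4.78 and 5.89 with no overlap of intervals, while the wide intervals of the miR-200c-3p to miR-141-3p ratio rest on 7, 10 and 2 counts of miR-141-3p.

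In the miR-200 family, miR-200c-3p accounted for nearly everything that was counted. It had 250, 305 and 271 counts, or 153, 170 and 139 RPM (ranks 199, 183 and 202), and no count of its other arm. Its ratio to miR-192-5p was 0.983 times that of the empty vector library with miR-1 (0.824 to 1.17) and 0.967 times with miR-122 (0.806 to 1.16). Of the 5 guide arms of the family, miR-200c-3p had 10.0, 9.24 and 15.9 times as many counts as the other 4 combined.

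The neighbor of miR-200c on chromosome 12, miR-141-3p, had only 7, 10 and 2 counts. Although both hairpins lie 330 bases apart in the same intron, miR-200c-3p exceeded miR-141-3p 35.7-fold (17.1 to 89.7), 30.5-fold (16.4 to 64.2) and 136-fold (37.2 to 1125). The other arm, miR-141-5p, had 0, 2 and 2 counts. The chromosome 1 cluster was as low: miR-200b-3p had 8, 13 and 12 counts, miR-200a-3p 6, 9 and 3, and miR-429 4, 1 and 0. These 3 hairpins summed to 18, 23 and 15 counts, against 257, 317 and 275 for the chromosome 12 cluster. The counts of miR-200b-3p are uncertain to the extent that reads of the nearly identical miR-200c-3p were assigned to it, which was not tested.

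By seed, the miR-200 family was therefore present as AAUACUG, with 262, 319 and 283 counts. The seed AACACUG of miR-141-3p and miR-200a-3p had 13, 19 and 5 counts. Its levels were 7.94 RPM (4.64 to 13.6) with the empty vector, 10.6 RPM (6.79 to 16.6) with miR-1 and 2.57 RPM (1.10 to 6.01) with miR-122. The empty vector interval overlapped both of the others, and the miR-1 and miR-122 intervals did not overlap.

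miR-204-5p, the tubule and retinal miRNA from the TRPM3 intron, had 175, 145 and 201 counts. Its levels of 107 RPM (92.2 to 124), 80.9 RPM (68.8 to 95.2) and 103 RPM (89.9 to 119) were lowest in the miR-1 library, with intervals of the empty vector and miR-1 libraries that overlapped. Relative to miR-192-5p it was 0.668 times as high in the miR-1 library as in the empty vector library (0.530 to 0.841) and 1.02 times as high in the miR-122 library (0.828 to 1.27). miR-204-3p had 3, 1 and 0 counts, and miR-211-5p, the paralog with the same seed, had none in any library.

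**Figure D3:**
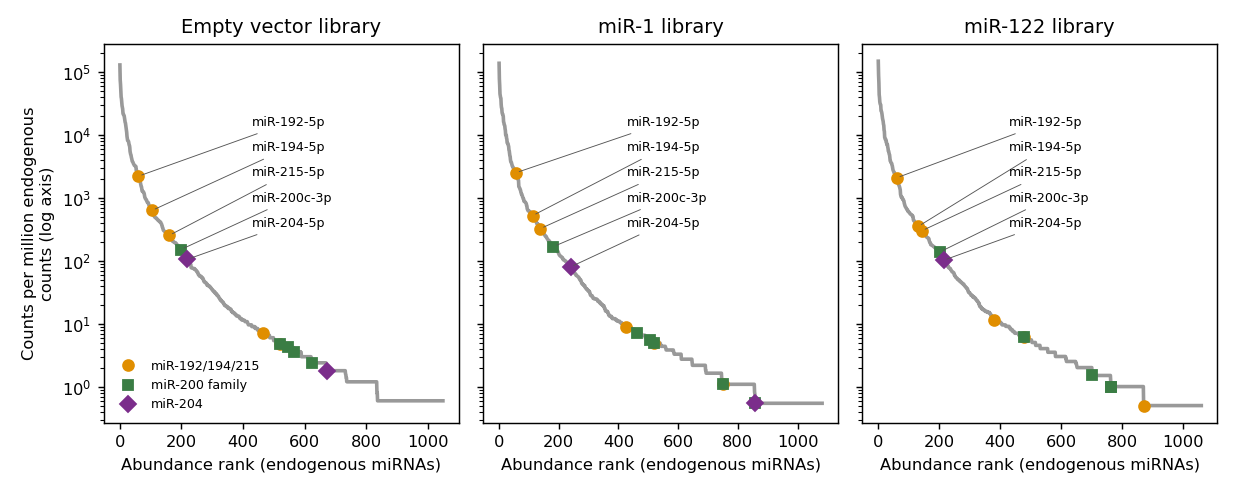
Level of every detected endogenous miRNA (y axis, RPM of endogenous counts, log axis) against its abundance rank (x axis), 1 panel per library, with members marked by family and those with at least 100 counts named. miR-192-5p stood at ranks 61, 57 and 61, and most of the miR-200 family lay in the low part of the curve, where single counts form steps.

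For the comparison of conditions, counts were scaled by TMM on the endogenous miRNAs that averaged 10 or more counts per library. These were 514 of all 2580, and 7 of the 17 members passed this filter. A ratio is given as log2 of scaled counts plus 0.5, and since there is 1 library per group, a call means only that the ratio passed a fixed fold. In the miR-1 library 0 of the 7 members were at least 2-fold from the empty vector, where 3.31% of all 514 miRNAs were, and 0 of 7 were at least 1.5-fold away, where 16.7% of all miRNAs were. The median of the members was 0.22, beside a median of 0.00 over all miRNAs with a spread (scaled median absolute deviation) of 0.31. The counts of all 10 hairpins summed gave a log2 ratio of 0.14 (0.09 to 0.19).

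The log2 ratios to the empty vector in the miR-1 library were 0.22 for miR-192-5p (0.15 to 0.28), 0.39 for miR-215-5p (0.21 to 0.58) and 0.19 for miR-200c-3p (-0.05 to 0.44). miR-194-5p was at -0.23 (-0.36 to -0.11) and miR-204-5p at -0.36 (-0.69 to -0.04). Every one of these lies inside the range that was common among the 514, since 27.0% of them were at least as far from 0 as miR-215-5p and 29.2% at least as far as miR-204-5p. The 514 include miRNAs with far fewer counts than these 5 members. With a minimum mean of 100 counts, 0.76% of miRNAs and 0 of 5 members were at least 2-fold away. The shares as far as each member were not computed for that set. The low-count members miR-194-3p and miR-200b-3p were at 0.31 and 0.58, with intervals that included 0.

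In the miR-122 library 0 of 7 members were at least 2-fold from the empty vector, where 9.92% of all miRNAs were. At 1.5-fold, 2 of 7 members passed, where 26.7% of all miRNAs did. They were the arms of miR-194, miR-194-5p at -0.75 (-0.89 to -0.61), which is 0.596-fold, and miR-194-3p at 0.76 (-0.29 to 1.92), whose interval included 0. Of all 514 miRNAs, 17.7% were at least as far from 0 as miR-194-5p, which stood 53rd from the lowest ratio. The other members with a mean of at least 100 counts were close to 0, at 0.01 for miR-192-5p (-0.06 to 0.07), 0.04 for miR-204-5p (-0.26 to 0.34) and -0.04 for miR-200c-3p (-0.30 to 0.21), except miR-215-5p at 0.34 (0.15 to 0.52). The median of the members was 0.04 beside -0.03 over all miRNAs, whose spread was 0.52, and the summed members were at -0.08 (-0.13 to -0.03). Both comparisons share the empty vector library, so that a value of that library enters both.

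**Figure D4:**
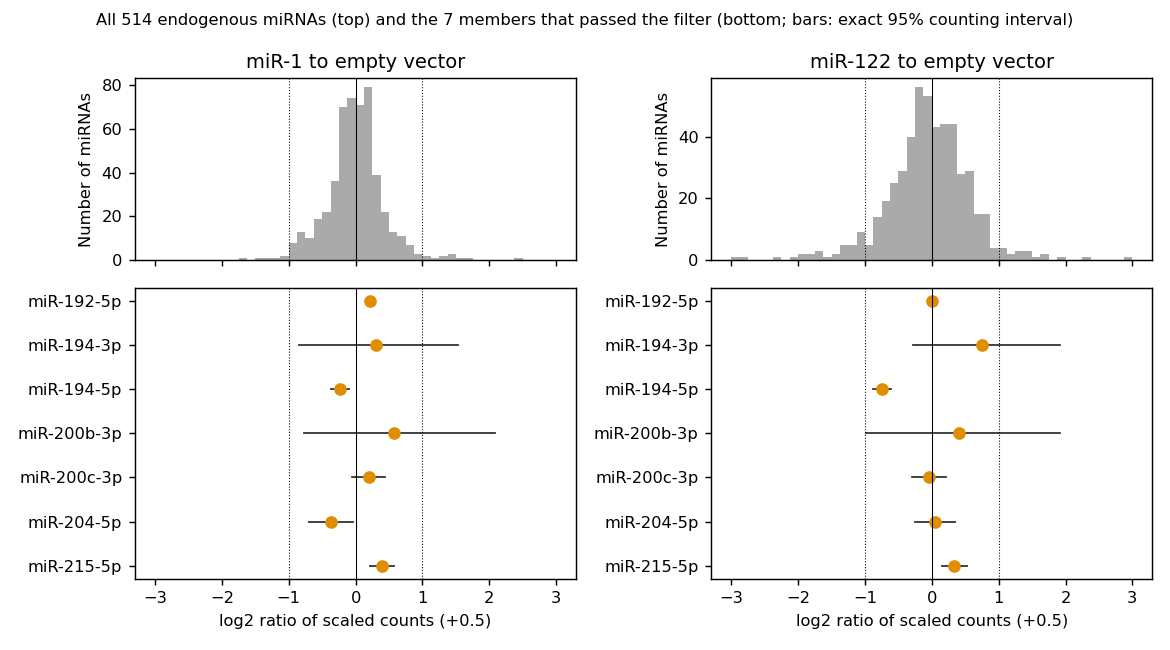
Top, number of the 514 endogenous miRNAs (y axis) by log2 ratio of TMM-scaled counts plus 0.5 to the empty vector (x axis), with ratios past 3 drawn in the end bins; bottom, the 7 members that passed the count filter, with exact 95% counting intervals. Dotted lines mark 2-fold; no member lay past them in either comparison, and miR-194-5p in the miR-122 library was at -0.75.

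The members were set beside lists of other miRNAs known from kidney, other epithelia, mesenchyme, endothelium and blood. As a sum, 11 other miRNAs known from kidney were far more abundant, at 23.4%, 24.0% and 24.2% of endogenous counts. This was 68.8, 65.7 and 80.0 times the members' sum, and it rested on the miR-30 family and miR-10. The rest of the list was low: miR-216a-5p had 3, 5 and 4 counts, miR-216b-5p 37, 61 and 77, miR-217 43, 37 and 21, and miR-211-5p none. miR-10a-5p held 55.0%, 57.0% and 61.2% of that list. The 5 arms of the miR-30 family alone, known from podocytes and tubules, exceeded the members 19.87-, 16.92- and 17.96-fold. Of the 9 that passed the filter, 0 were at least 2-fold from the empty vector with miR-1 and 1 with miR-122, miR-217 with 43, 37 and 21 counts, where 3.31% and 9.92% of all 514 miRNAs were.

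Markers of other epithelia were patchy, with 0.101%, 0.0748% and 0.0974% of endogenous counts over 5 miRNAs. miR-31-5p had 1135, 963 and 1066 counts and miR-375, known from endocrine cells, 505, 349 and 801. The skin and stratified epithelium miRNAs miR-203a-3p (14, 17 and 17) and miR-205-5p (0, 1 and 5) were rare. None of the 3 that passed the filter was 2-fold away in either library, where 3.31% and 9.92% of all miRNAs were.

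The mesenchymal list of 7 miRNAs summed to 3.24%, 3.84% and 3.02% of endogenous counts, of which miR-21-5p, a miRNA of many proliferating cell types, made up 99.7% in each library. The more specific miR-143-3p had 112, 169 and 107 counts, miR-145-5p had 2, 7 and 3, and miR-214-3p had none. Endothelial miR-126-3p had 5319, 6314 and 7533 counts, which was 0.956 (0.920 to 0.992), 0.964 (0.931 to 0.998) and 1.28 (1.24 to 1.32) times the sum of all members. Its log2 ratios to the empty vector were 0.15 with miR-1 and 0.34 with miR-122. The other arm, miR-126-5p, had 329, 323 and 284 counts and went the other way, at -0.12 and -0.37. The 6 blood miRNAs had 24, 18 and 27 counts together, with miR-223-3p at 0 in all libraries. A part of other cell types in the members' levels was not tested.

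**Figure D5:**
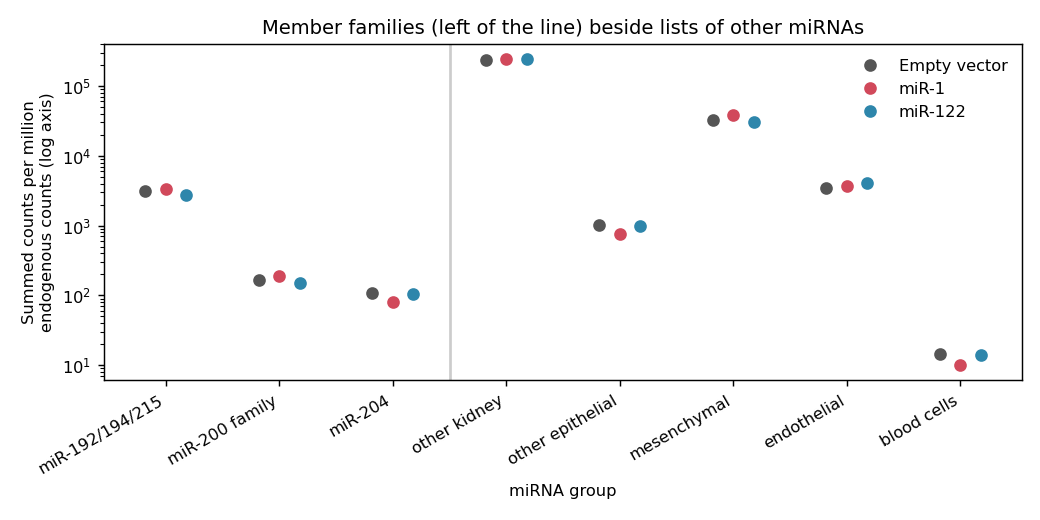
Summed level (y axis, RPM of endogenous counts, log axis) of the 3 member families, left of the line, and of 5 lists of other miRNAs, right of it, 1 point per library. The other kidney list stood highest at 23.4% to 24.2% of endogenous counts, and the miR-200 family at 149 to 190 RPM was below the other epithelial list in each library.

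Among the 262 endogenous miRNAs with a mean of at least 100 counts, those whose log2 scaled counts lay nearest to miR-192-5p over the 3 libraries were miR-629-5p, miR-32-5p and miR-106b-3p, at Euclidean distances of 0.20, 0.31 and 0.33. miR-629-5p had 3657, 4367 and 4661 counts, miR-32-5p 3339, 3708 and 4203, and miR-106b-3p 4038, 4129 and 4873. With 3 libraries this nearness describes a similar level more than a shared pattern.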

How the data were processed

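Small RNA was sequenced from 3 cultures, 1 library per group. Per the methods of the study, adapters were trimmed by the authors, reads shorter than 18 nt were discarded, and collapsed reads were counted with miRDeep2 on human hairpins of miRBase release 21 plus their 5 synthetic hairpins. The deposited table gives estimated counts for each pair of mature miRNA and hairpin, with reads that map to several hairpins divided among them. The authors also deposited RPM values, scaled to all miRNA reads, induced miRNAs included, which were not used for the results. A pooled count column by the authors was not used either. The build hg19 is named in the submitters' processing notes, and no genome entered the counting. Reads carried no molecular identifiers, so intervals and limits cover counting error only.

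Counts were summed over hairpins, and endogenous miRNAs with a mean of at least 10 counts were scaled by TMM (edgeR 4.0.16, R 4.3.3). Shares carry Wilson intervals, ratios exact Clopper-Pearson intervals, and changes of ratios exact conditional odds-ratio intervals (scipy 1.17.1), all at 95%. The log2 ratio step was tested on simulated data. Coordinates came from GENCODE v44lift37, except MIR194-2, placed by an exact match of its RefSeq hairpin to GRCh37. All arms of the 10 hairpins, miRNAs that share their seeds, miR-10a-5p and the 3 miRNAs nearest to miR-192-5p were named. The marker lists were summed, and only some of their miRNAs are named in the text. The members and lists were chosen with earlier results of these data known. Alternatives were another scaling (total counts, DESeq2 1.42.0 size factors), another filter, pseudocount or fold limit, and the highest hairpin row in place of the sum.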

Additional observations from a re-analysis of the deposited data

How the results depend on the processing

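No paired analysis was possible because there was only 1 library in each group, and for the same reason no replicate could be left out. Of 56 recomputed values for 15 results, 39 stayed within their counting interval or count range, 14 moved and 3 moved with a change of sign. With libraries scaled to the total of all counts, induced miRNAs included, the summed members were at -0.59 (miR-1) and -0.57 (miR-122) on the log2 scale and their medians at -0.51 and -0.45. This scaling moved the median of all 514 miRNAs to -0.72 and -0.53, so that members minus all stayed at 0.21 and 0.07, and 1 member passed 2-fold in each comparison (miR-204-5p and miR-194-5p), where 20.6% and 19.6% of all miRNAs did. Scaled to total endogenous counts, the summed members in the miR-122 library were at -0.17, their median changed sign within its counting range, from 0.04 to -0.05, and 3 of 7 members were higher where TMM gave 5. With no count filter 4 (miR-1) and 6 (miR-122) of 14 members passed 2-fold, all of them additional low-count arms, beside 31.9% and 36.8% of all miRNAs. At 1.5-fold 2 of 7 members passed in the miR-122 library, beside 26.7% of all miRNAs. At a minimum of 10 counts, 6 (empty vector), 8 (miR-1) and 8 (miR-122) members were detected, in place of 12, 14 and 12. The highest hairpin row in place of the sum gave 3639, 3976 and 3330 RPM for the summed members, and the total of all counts as denominator gave 2265 RPM (miR-1) and 2283 RPM (miR-122). Depth limits the miR-200 family outside miR-200c, whose guide arms had at most 13 counts, and the rare arms miR-192-3p and miR-204-3p, which had at most 3.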

Other observations

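Some members and list miRNAs had counts at which the sign of a difference between libraries cannot be read. miR-216a-5p, known from kidney and pancreas, had 3, 5 and 4 counts in the empty vector, miR-1 and miR-122 libraries, while miR-216b-5p had 37, 61 and 77 (log2 ratios to the empty vector of 0.62 and 0.89). miR-30e-5p, a kidney list miRNA, had 25311, 22405 and 16505 counts and log2 ratios of -0.27 and -0.78, the latter close to the -0.75 of miR-194-5p. The list as a whole did not share this value in the miR-122 library. There miR-30a-5p was at -0.27, miR-30b-5p at -0.40, miR-30c-5p at -0.10 and miR-30d-5p at 0.07. Beside them, miR-10a-5p was at 0.29, miR-10b-5p at 0.16 and miR-217 at -1.17. miR-375 had log2 ratios of -0.63 with miR-1 and 0.51 with miR-122.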
